A study of Homo sapiens with 2 samples.

Results

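The genes described here are 8 that encode the contractile apparatus of smooth muscle, namely ACTA2, ACTG2, MYH11, MYLK, CNN1, TAGLN, LMOD1 and DES. They were chosen by name, for their role in contraction, with earlier results of these data known. Each was taken as its span on the human assembly GRCh37 plus 10 kb on either side, and the 8 windows together hold 55 of the 105637 peak summits in the deposited list. The list comes from chromatin immunoprecipitation and sequencing in A549, an epithelial lung adenocarcinoma line with MYOCD, the gene of Myocardin, stably overexpressed from the vector pWPI. The sheared chromatin of these cells was precipitated with anti-Myocardin in 1 library and with a nonspecific IgG in 1 other, without replicates, both carry the overexpressed gene, and no library from cells without it was analysed here. No row of the list is tied to either antibody and the depth of sequencing is unknown. A summit below is therefore a called position of this list, not a measured excess of anti-Myocardin over IgG, and no test between libraries could be made. A list of summits holds no transcript levels, so neither the identity of the cells nor the expression of the 8 genes was checked.

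Myocardin is a transcriptional coactivator that does not bind DNA by itself in the classical model. It joins serum response factor (SRF) on the CArG box, a short element with a pair of C, a core of A and T, and a pair of G, and in smooth muscle it switches on genes of contraction. Those genes encode the actin filaments (ACTA2, ACTG2), the myosin motor and the kinase that activates it (MYH11, MYLK), proteins that sit on or build the thin filament (CNN1, TAGLN, LMOD1) and an intermediate filament that ties the apparatus together (DES). The comparison asks where summits of the list lie at these known targets.

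Summits lay close to the start of most of these genes. In 6 of the 8, ACTA2, MYH11, MYLK, CNN1, LMOD1 and DES, a summit lay within 500 bp of the 5′ end of the span. Only that end was counted as the start, here and below. ACTA2 and MYLK also have a RefSeq start inside the gene. In ACTA2 the elements akin to the CArG box lie at that internal start and not at the outer one. Of positions on a 1 kb grid over the same 7 chromosomes, 3.93% have a summit that near. The 500 bp distance was picked after the values were seen. Within 2 kb, the number was 7 of 8, against 14.3% of grid positions. TAGLN was the exception, with its nearest summit 2542 bp inside the gene. For 5 of the 8, RefSeq also has a coding neighbour within 10 kb on the 5′ side, SIDT2 for TAGLN, ECSIT for CNN1, CEP20 for MYH11, CCDC14 for MYLK and TIMM17A for LMOD1. Those neighbours were not placed on GRCh37, so a summit near or before these starts is given by its position and not assigned to a gene. The grid stands for sequence at large. Starts of other genes on GRCh37 were not analysed here, so the share of all genes with a summit as near is not given and the pattern cannot be called particular to contractile genes.

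**Figure D1:**
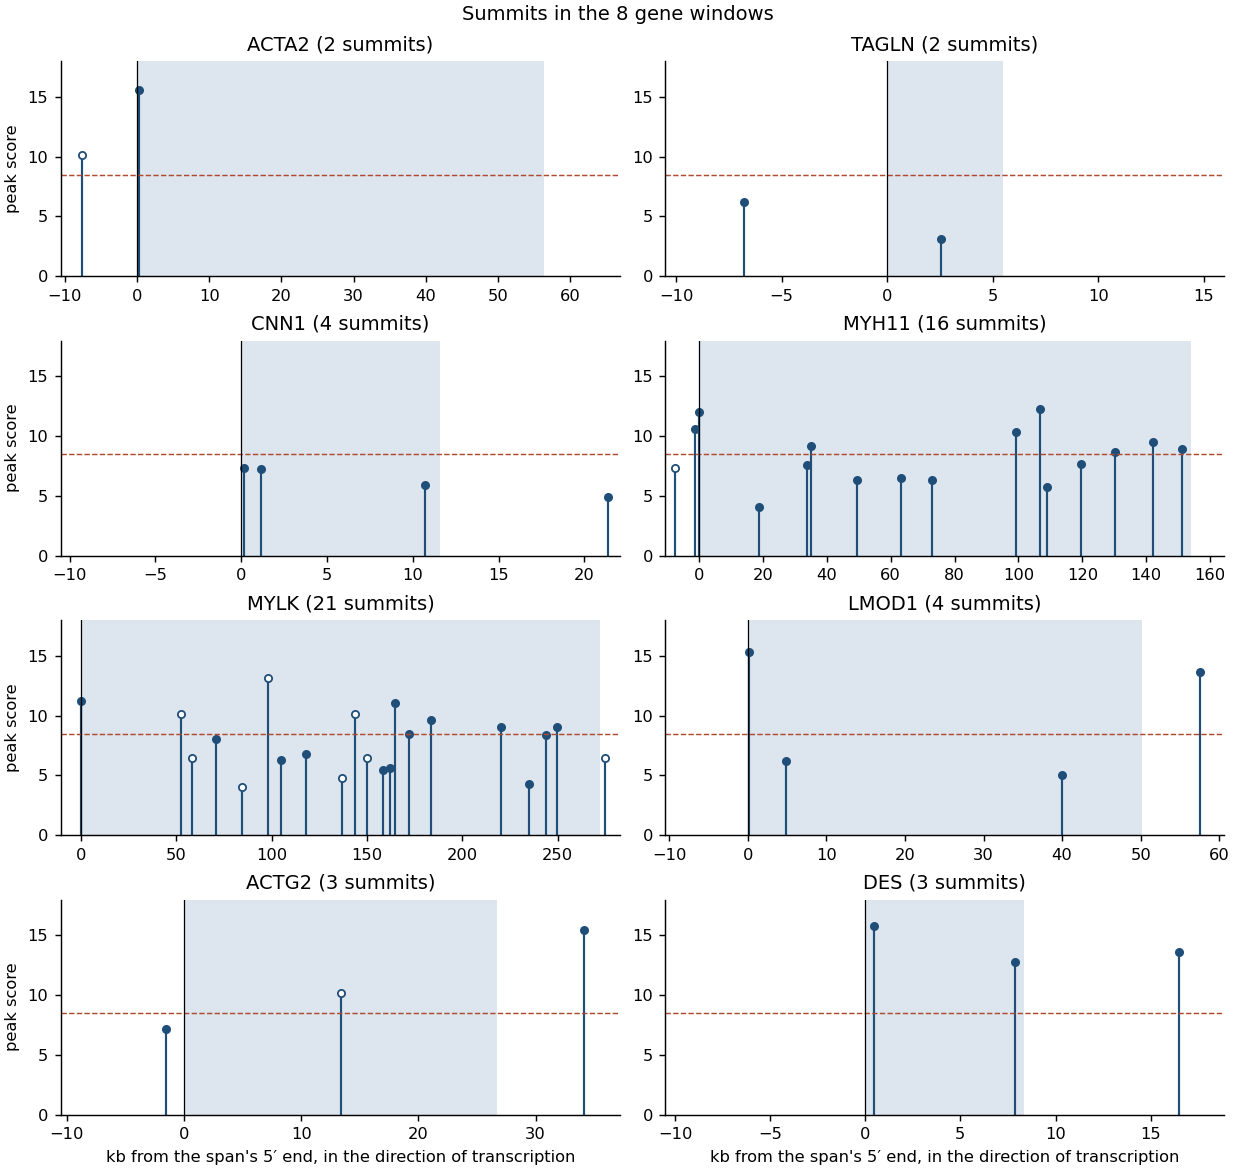
Summits in the windows of the 8 genes, as peak score (vertical axis, the peak caller's value, no stated unit) against kb from the 5′ end of the span in the direction of transcription. The shaded area is the gene span, open circles carry a score shared by at least 150 peaks of the list, and the dashed line is the list's median score of 8.50. All panels but those of TAGLN and ACTG2 have a summit within 500 bp of 0.

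The smooth muscle actin genes had few summits, 2 at ACTA2 and 3 at ACTG2. ACTA2 encodes α-smooth muscle actin, the most widely used marker of smooth muscle cells and myofibroblasts, and its span is chr10:90694831-90751147 on the minus strand. The first of its summits, at position 90750815 with a score of 15.6, lay 332 bp inside the 5′ end and ranked at percentile 86.4 of the list. The other lay 7.64 kb before the 5′ end with a score of 10.2. The remaining 56.0 kb of the gene held no summit. In RefSeq, FAS, the gene of a death receptor, overlaps ACTA2 from the opposite strand and a further neighbour, FAS-AS1, lies on its 5′ side, so the summit at the ACTA2 5′ end cannot be assigned to 1 of these genes. RefSeq also gives ACTA2 another start inside the gene, which was not placed on GRCh37.

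The promoter windows of both ACTA2 starts are printed because they differ in the element through which SRF and Myocardin are known to act. They run from 250 bases before to 50 after the RefSeq start (GRCh38.p14, minus strand, outer window chr10:88991288-88991587 and internal window chr10:88952724-88953023). Their positions belong to another assembly than the summits, so no distance to a summit is given. On that assembly the internal window lies far inside the gene from the outer one. On GRCh37 the only summit in the ACTA2 span lay 332 bp inside its 5′ end, and the remaining 56.0 kb held none. If the starts are spaced alike on GRCh37, no summit lay near the internal one. Capitals mark elements with the flanking bases of the CArG box and a core that has 1 C or G among its A and T, the form long described for this promoter.
ACTA2 outer start: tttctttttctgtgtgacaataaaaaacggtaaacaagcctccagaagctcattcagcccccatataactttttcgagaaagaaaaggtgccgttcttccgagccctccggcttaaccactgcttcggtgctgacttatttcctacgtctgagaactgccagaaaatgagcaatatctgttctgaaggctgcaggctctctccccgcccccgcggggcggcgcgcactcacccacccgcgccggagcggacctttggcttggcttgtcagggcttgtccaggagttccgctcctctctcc
ACTA2 internal start: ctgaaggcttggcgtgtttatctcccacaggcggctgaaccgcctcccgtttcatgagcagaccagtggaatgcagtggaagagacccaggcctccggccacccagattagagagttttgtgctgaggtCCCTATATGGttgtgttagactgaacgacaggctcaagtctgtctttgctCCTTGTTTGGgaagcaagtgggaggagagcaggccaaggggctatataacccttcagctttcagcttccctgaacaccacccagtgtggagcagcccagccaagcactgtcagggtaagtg
The outer window has neither a CArG box nor such an element, and it holds 18 CpG dinucleotides. The internal window has the elements CCCTATATGG and CCTTGTTTGG, the first base of each lying 121 and 71 bases before the start, and 6 CpG dinucleotides. The search covered both strands, on which the pattern reads alike (a core of 6 bases), and the strict box and the variant do not overlap in any printed window. Elements with a changed base in the flanking pairs of C or G were not searched for in any window. The strict CArG box occurs in 1.29% and the variant in 6.94% of the 35116 RefSeq promoter windows of this length. A match of letters is a description and shows no binding.

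ACTG2 encodes the γ-smooth muscle actin of gut and other visceral muscle, and its span is chr2:74120093-74146780 on the plus strand. It had 3 summits, with the highest score away from its start. The nearest to the start, at 74118518, lay 1575 bp before it with a score of 7.17, at percentile 32.6 of the list. A second lay 13.4 kb inside the gene with a score of 10.2, a value that many peaks share. The third, at 74154190, scored 15.5 at percentile 86.1 and lay 7.41 kb past the 3′ end, the side on which RefSeq places DGUOK, a mitochondrial deoxyguanosine kinase gene, within 10 kb. The ACTG2 promoter is shown as the only matched 5′ end of the set with strict CArG boxes, in capitals (GRCh38.p14, plus strand, chr2:73892758-73893057).
ACTG2 start: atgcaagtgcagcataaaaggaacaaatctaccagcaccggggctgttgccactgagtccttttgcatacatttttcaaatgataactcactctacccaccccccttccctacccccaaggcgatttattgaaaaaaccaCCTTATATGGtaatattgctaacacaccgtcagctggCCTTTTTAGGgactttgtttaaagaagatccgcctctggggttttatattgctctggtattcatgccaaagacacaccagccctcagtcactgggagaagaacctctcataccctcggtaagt
The boxes CCTTATATGG and CCTTTTTAGG begin 110 and 73 bases before the start. The window was read from another assembly than the summits, and no distance between a box and a summit is given.

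MYH11 and MYLK, the motor and its activator, held 37 of the 55 summits (67.3%) and 62.6% of the window length. MYH11 encodes the smooth muscle myosin heavy chain, a marker of differentiated smooth muscle, and spans chr16:15796992-15950887 on the minus strand. Its window held 16 summits. The one nearest to the start, at 15951005, lay 118 bp before the 5′ end with a score of 12.01 (percentile 73.3), and the next lay 1243 bp before it with a score of 10.6. Inside the gene, 13 summits scored from 4.07 to 12.2. The highest of these, at 15844117, lay 107 kb from the start, in the 3′ part of the gene. The longest stretch of the span without a summit measured 26.2 kb. RefSeq places NDE1, which is needed for the mitotic spindle and dynein, over MYH11 on the opposite strand, so summits within the gene cannot all be credited to MYH11.

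MYLK encodes myosin light chain kinase, which phosphorylates the myosin regulatory light chain in response to calcium and calmodulin, and spans chr3:123331143-123603149 on the minus strand. It had the most summits, 21, of which 19 lay inside the gene. The summit nearest to its start, at 123603392, lay 243 bp before it with a score of 11.2 (percentile 70.5). The first 52.2 kb of the gene then held none, the longest stretch without a summit in this span. The highest score, 13.2, belonged to a summit at 123504983, 98.2 kb inside the gene. The 20 others scored from 4.04 to 11.2. Of the 21, 8 carried a score that at least 150 peaks of the list share, including the highest, as did 3 of the 34 summits in the other windows.

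MYLK is known to make several products, among them telokin, from starts inside the gene. The RefSeq promoter window found for MYLK is such an internal one, shown around its single strict CArG box in capitals, 94 bases before that start (GRCh38.p14, minus strand, window chr3:123620499-123620798).
MYLK internal start: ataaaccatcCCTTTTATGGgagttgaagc
This start was not placed on GRCh37, so its distance to a summit is not given. Promoter windows were matched for 5 of the 8 genes and 6 starts. TAGLN, MYH11 and DES had none.

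The proteins of the thin filament gave mixed values. CNN1 encodes calponin, an actin-binding protein that restrains myosin, and spans chr19:11649579-11661138 on the plus strand. It had 4 summits, 3 of them within the gene, and all 4 scored below the list's median. The 2 nearest to the start, at 11649762 and 11650730, lay 183 and 1151 bp inside it with scores of 7.34 and 7.29. The third scored 5.89 at 10.7 kb from the start, near the 3′ end, and the fourth scored 4.88 at 9.80 kb past that end, the side of ELOF1 in RefSeq. Its RefSeq promoter window held neither form of the CArG box.

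TAGLN encodes transgelin (SM22α), an actin-bundling protein whose promoter is a classical CArG-dependent target of Myocardin, and spans chr11:117070040-117075508 on the plus strand. Its 2 summits had the lowest median score of the 8 genes, 4.66. At 117072582, 2542 bp inside the gene, the score was 3.14, at percentile 0.319 of the list. At 117063283, 6.76 kb before the start and on the side of SIDT2 in RefSeq, the score was 6.18, at percentile 21.1. PCSK7, a proprotein convertase gene, overlaps TAGLN in RefSeq. On chromosome 11, 17% of grid positions have a summit as near as the TAGLN start does, whereas for the 6 genes with a summit within 500 bp the share ran from 0.844% to 3.45%.

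LMOD1 encodes leiomodin 1, which nucleates actin filaments in smooth muscle, and spans chr1:201865584-201915716 on the minus strand. It had 4 summits, and the strongest marked the start. At 201915601 the score was 15.3 (percentile 85.9), and this summit lay 115 bp inside the 5′ end, the smallest distance of the 8 genes. The next scored 6.23 at 4.79 kb from the start and another 5.05 at 39.99 kb. The fourth, with a score of 13.7, lay 7.42 kb past the 3′ end, the side of SHISA4 in RefSeq. The LMOD1 promoter is printed because LMOD1 has the summit nearest to a start (GRCh38.p14, minus strand, chr1:201946499-201946798). The window has no capitals since neither form of the CArG box was found. Looser elements, with a changed base in the flanking pairs of C or G, were not searched for and are not marked.
LMOD1 start: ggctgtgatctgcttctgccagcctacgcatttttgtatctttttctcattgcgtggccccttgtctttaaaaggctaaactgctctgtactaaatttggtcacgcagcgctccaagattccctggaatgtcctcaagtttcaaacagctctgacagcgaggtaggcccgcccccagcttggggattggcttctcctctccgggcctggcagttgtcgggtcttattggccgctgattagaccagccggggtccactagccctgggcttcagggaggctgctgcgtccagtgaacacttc
The window has 11 CpG dinucleotides, against a median of 14 over all RefSeq windows.

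DES encodes desmin, the intermediate filament of muscle, shared by smooth, cardiac and skeletal muscle, and spans chr2:220283099-220291459 on the plus strand. It was the only gene of the 8 whose summits all lay in the top 25% of scores. The first, at 220283565, lay 466 bp inside the gene and scored 15.8 (percentile 86.7), the highest value in any of the 8 windows. The second scored 12.8 and lay 7.88 kb from the start, near the 3′ end. The third scored 13.6 at 8.13 kb past that end, where RefSeq has SPEG, a striated muscle kinase gene, as the neighbour within 10 kb.

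**Figure D2:**
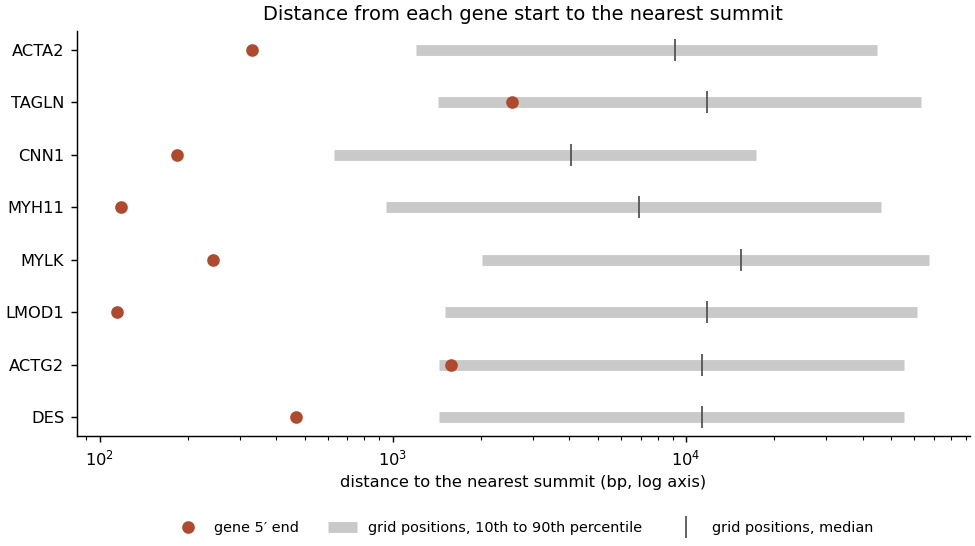
Distance in bp (log axis) from the 5′ end of each gene span to the nearest summit (red points), with the middle 80% of distances (grey bars) and their median (ticks) over a 1 kb grid on the same chromosome. ACTA2, CNN1, MYH11, MYLK, LMOD1 and DES lie left of the bars, while ACTG2 and TAGLN lie inside them.

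In order of distance from the start, LMOD1 (115 bp), MYH11 (118 bp), CNN1 (183 bp), MYLK (243 bp), ACTA2 (332 bp) and DES (466 bp) came first, followed by ACTG2 (1575 bp) and TAGLN (2542 bp). The share of grid positions with a summit as near was 0.844% for LMOD1, 1.3% for MYH11, 2.99% for CNN1, 1.29% for MYLK, 2.97% for ACTA2, 3.45% for DES and 10.9% for ACTG2. CNN1 has a larger share than MYLK at a smaller distance since chromosome 19 is crowded with summits. The 6 summits within 500 bp of a start had a median score of 13.7 and ran from 7.34 to 15.8, and none carried a repeated score. The 49 others had a median of 7.63 and ran from 3.14 to 15.5, and 11 carried a repeated score. The ranges overlap, and no test was made as the division at 500 bp followed the data. Counted over the top 25% of scores alone, 3 genes, ACTA2, LMOD1 and DES, had a summit within 2 kb of the start. The share of grid positions with a summit of the top 25% as near was not computed. This number therefore cannot be set against the 14.3% found for all summits.

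**Figure D3:**
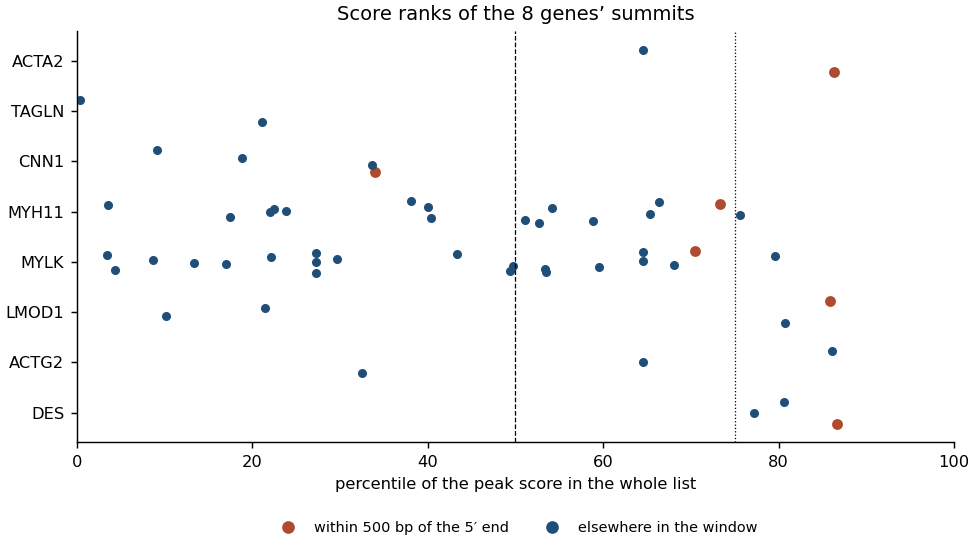
Percentile of each summit's peak score in the whole list (horizontal axis), by gene, with summits within 500 bp of the 5′ end in red and all others in blue. The dashed and dotted lines mark the 50th and 75th percentiles, and 9 of the 55 summits lie to the right of the dotted line.

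The summits of these genes did not stand out for high scores. Their median score was 8.07, against 8.50 over all 105637 peaks. Of the 55, 9 (16.4%, exact Clopper-Pearson 95% interval 7.77% to 28.8%) were in the top 25% of scores, which with ties holds 26.3% of the list. The interval includes the list's share. DES had 3 of these, LMOD1 had 2, and ACTA2, ACTG2, MYH11 and MYLK had 1 each. TAGLN and CNN1 had none. The share was 23.5% without MYLK and 20.5% without MYH11, both left out after the values were seen. Inside the gene spans alone it was 14.0%, from 6 of 43 summits. The other 3 of the 9 lay past the 3′ ends of LMOD1, ACTG2 and DES, so the ACTG2 span had none. None of the 55 reached the top 10%, which holds 10.0% of the list. Scores that at least 150 peaks share were carried by 11 of the 55 (20%, 10.4% to 33.0%), against 29.4% of the list. These intervals cover counting error only and treat summits as independent, although those of 1 gene share a region.

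The windows held more summits than their chromosomes' average density would give, 55 against 29.9, a ratio of 1.84 (exact Poisson 95% interval 1.39 to 2.39, counting error only). The ratio was 1.57 against the density within 5 Mb of each gene and 1.54 without MYLK. Over the top 25% of scores it was 1.18, from 9 summits. The expected number comes from summits per base between the first and the last summit of the chromosome, with stretches of at least 1 Mb that lack a summit left out. Gene content was not held equal between the windows and their chromosomes, and its part in the ratio was not tested.

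**Figure D4:**
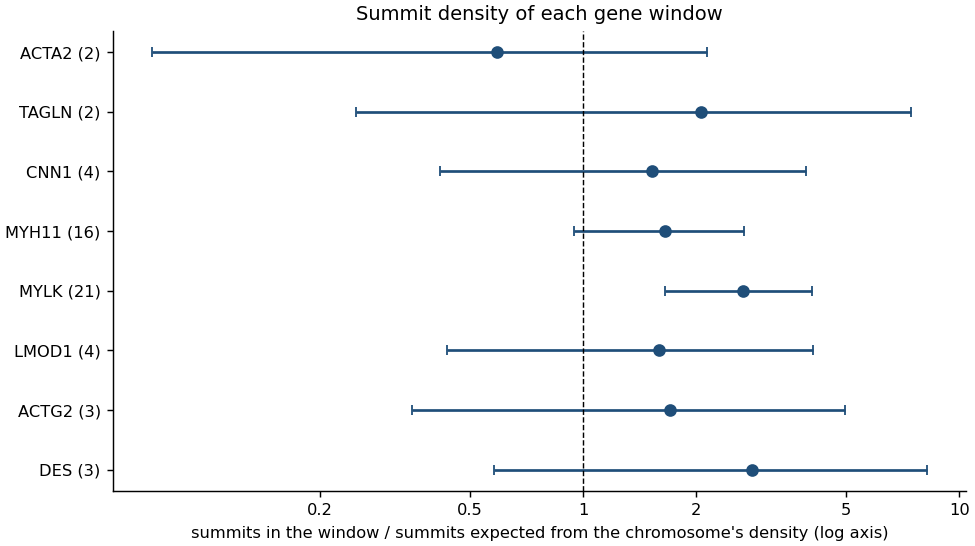
Ratio of the summits in each gene window to the number expected from the density of its chromosome (log axis), with exact Poisson 95% intervals as bars and the number of summits in parentheses. ACTA2 lies below 1 and the other 7 above, and the interval lies wholly above 1 for MYLK alone.

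Gene by gene, 7 of the 8 windows were above their chromosome's density and ACTA2 was below it. The share of all windows above that density was not counted, so the 7 have no background. For TAGLN 0.971 summits were expected, so a window with 1 summit already counts as above. Against the density within 5 Mb, 7 windows were again above. LMOD1 was then at 1.01, with 49.0% of nearby windows holding at least as many. MYLK had 21 summits where 7.89 were expected, a ratio of 2.66 (1.65 to 4.07), and 4.4% of all windows of the same length on chromosome 3 held at least as many. Chromosome 3 is denser around MYLK, and against the density within 5 Mb the ratio was 1.55, with 15.9% of nearby windows holding at least as many. MYH11 had 16 summits where 9.70 were expected, a ratio of 1.65 (0.943 to 2.68), and 23.5% of windows on chromosome 16 held at least as many. ACTA2 had 2 where 3.39 were expected, a ratio of 0.590 (0.0714 to 2.13), and 48.5% of windows on chromosome 10 held at most as many.

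Counts in the short windows were too few to place. DES had 3 summits where 1.07 were expected, a ratio of 2.81 (0.579 to 8.20), with 13.4% of windows on chromosome 2 at or above its count. The ratios of TAGLN, ACTG2, LMOD1 and CNN1 ran from 1.53 to 2.06, each with an interval that includes 1. The share of windows with at least their counts was 25.7% for TAGLN, 26.5% for ACTG2, 27.8% for LMOD1 and 28.2% for CNN1, so counts of this size were common on these chromosomes.

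Within the windows the spans held 43 summits over 584 kb (0.736 per 10 kb), the 10 kb before the starts held 7 over 80.0 kb (0.875 per 10 kb) and the 10 kb past the ends held 5 over 80.0 kb (0.625 per 10 kb). MYH11 had 3 of the 7 before its start. The 5 past the ends, at CNN1, MYLK, LMOD1, ACTG2 and DES, had a median score of 13.6, and those of LMOD1, ACTG2 and DES were in the top 25% of scores. Per 10 kb of span the gene with most summits was CNN1, with 2.60 from 3 summits, followed by DES, with 2.39 from 2. ACTA2 had fewest, with 0.178 from 1 summit. These counts are too few to rank the genes, and no interval was computed for the rates. The windows held 3 pairs of adjacent summits 500 to 1500 bp apart, 1 in CNN1 (968 bp) and 2 in MYH11 (1125 and 1372 bp). The share of such pairs over the whole list was not counted, so their number cannot be called high or low.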

How the data were processed

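The authors deposited 1 list of summits for the whole series, each 1 bp wide, with a peak score whose unit the deposited header does not name. The list's name refers to MACS, and CASAVA 1.4, mm9 and GRCh38.p12 are named in the submitters' processing notes. The aligner, the caller's threshold and the role of the IgG library are not stated. On GRCh37 0 summits lie past a chromosome end, against 1093 on GRCh38 and 1667 on NCBI36, so positions are read in GRCh37. Columns of per-sample values left out number 0.

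Gene spans on GRCh37 were taken as given with the gene list, and no annotation of that assembly was used to check them. Names of all 8 genes and strands of 5 were checked in RefSeq tables of GRCh38.p14. The strands of TAGLN, MYH11 and DES, on which their distances from the start rest, are textbook knowledge and were not checked. Each window was set against all windows of its length in 1 kb steps, in place of random ones. Grid positions and windows overlap in summits and no p-value was made. The ratio of summits to the expected number was tested on simulated lists, with summits scattered evenly at random and a planted ratio. Those lists do not mimic clustered summits, so they do not test the Poisson intervals. Python 3.11.15, numpy 2.4.6 and scipy 1.17.1 were used. All 8 genes are named, and summits printed one by one are those nearest to the start, the highest, and all of genes with few, with others added to describe flanks. The genes and measures were chosen with earlier results of these data known.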

Additional observations from a re-analysis of the deposited data

How the results depend on the processing

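The 13 results were each recomputed under other settings, 61 values in all. In 47 of them the direction held and the value stayed within its interval or the count within 1.5 times. Restriction to the top 25% of scores moved most. The ratio of all 8 windows was then 1.18, the number of genes above their chromosome's density 4, the number with a summit within 2 kb of the start 3, and the ratios were 1.10 for ACTA2, 0 for TAGLN and CNN1, 0.459 for MYH11 and 0.426 for MYLK, which turned the direction of these 5 genes. The ratio of DES was 9.88 in that setting, from 3 summits. Shares of grid positions and of windows were not computed in that setting, where summits are fewer everywhere. The share in the top 10% of scores was 0. ACTG2 fell below 1 without flanks (0.994) and with flanks of 50 kb (0.838). Against the density within 5 Mb MYLK was at 1.55. Summits per kb of span over flank were 0.981 (0.508 to 2.04) and 1.18 with flanks of 5 kb. The cause was not tested in any of these. Without 1 gene in turn, the ratio of the others ran from 1.54 to 1.998. The 500 bp distance and the scores without start summits, MYLK or MYH11 were added after seeing the data. No paired analysis was possible because each antibody has 1 library and the list names neither. Depth is not given, so its limit on the number of summits is unknown.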
